A study of Rattus norvegicus with 4 samples.

Results

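Heme oxygenases, biliverdin reductases, ferritin chains and iron carriers were followed in NR8383 cells, a rat alveolar macrophage line first grown from a lung lavage. The 10 genes were Hmox1, Hmox2, Blvra, Blvrb, Fth1, Ftl1, Tfrc, Slc40a1, Slc11a1 and Slc11a2, chosen by function, with earlier results of these data known, out of 16581 genes named on the array. All gene probes whose accession belonged to one of them were taken, which gave 15 probes at 16 spots. The cells had been given titanium dioxide particles (NM105, also known as P25, with the crystal forms anatase and rutile) for 4 h at 3 cm2 of particle surface per cm2 of culture, after 20 passages in medium with 15% serum. There were 4 such cultures, named replicates 1 to 4, each on 1 array of a single slide, and the study's design text calls them biological replicates. Untreated cultures of the study were not analysed here. No value below is therefore an effect of the particles: the data show which of these messages could be read after exposure, at what strength, and with what spread over the 4 arrays. A line kept in culture stands in for the macrophages of the lung only in part.

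Macrophages take up dying red blood cells and recover the iron of their heme. Heme oxygenase opens the heme ring and releases iron, carbon monoxide and biliverdin, which biliverdin reductase turns into bilirubin. The freed iron is stored in ferritin, a shell of heavy and light chains, or leaves the cell through ferroportin. Iron carried by transferrin enters through the transferrin receptor, and the transporter DMT1 moves it out of the endosome. When iron is scarce, iron regulatory proteins bind stem-loops in the messages of these genes, which blocks translation of ferritin and stabilises the message of the transferrin receptor. That control of ferritin acts on the protein and is not visible in RNA.

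The line carried macrophage RNA. Of 11 macrophage markers with a probe, every array detected 8, among them Cd68, Lyz2, Itgam and Csf1r, while Adgre1 and Marco were detected on none and Mrc1 on 1. Of 6 measured red blood cell genes, only Epor, the erythropoietin receptor, was detected on all 4 arrays, and the globin genes Hbb and Hba-a2, the band 3 gene Slc4a1 and Alas2 on none. All 5 epithelial and all 4 hepatocyte markers were undetected. Of 3 fibroblast markers, Col1a1 was detected on replicate 1 alone, at a level of −6.02, and the others on none. Overall signal differed between arrays: among probes that every array detected, the 75th percentile of intensity stood at 1431, 585, 767 and 831 units on replicates 1 to 4, so replicate 1 was 2.45 times as bright as replicate 2. A level below is the log2 of a probe's intensity relative to that percentile on its own array, and the mean ± SD is over the 4 arrays. One probe's level cannot be set against another's, because probes differ in brightness. With 4 arrays, the number of arrays limits the precision of every SD.

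All but 1 of the 10 genes gave signal. A gene counts as detected where the scanner software marks it well above background. Every array detected 9 of the 10 genes and no array detected Slc40a1, where 35.2% of all named genes were detected on each of the 4. Of the 15 probes, 13 were detected on every array and the 2 of Slc40a1 on none. The members were picked as genes known to work in macrophages, so this share is a description of them. No spot of a member was saturated or marked as an outlier. The error that the scanner software gives for a single spot ran from 10.0% to 12.3% of intensity over the detected probes.

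**Figure D1:**
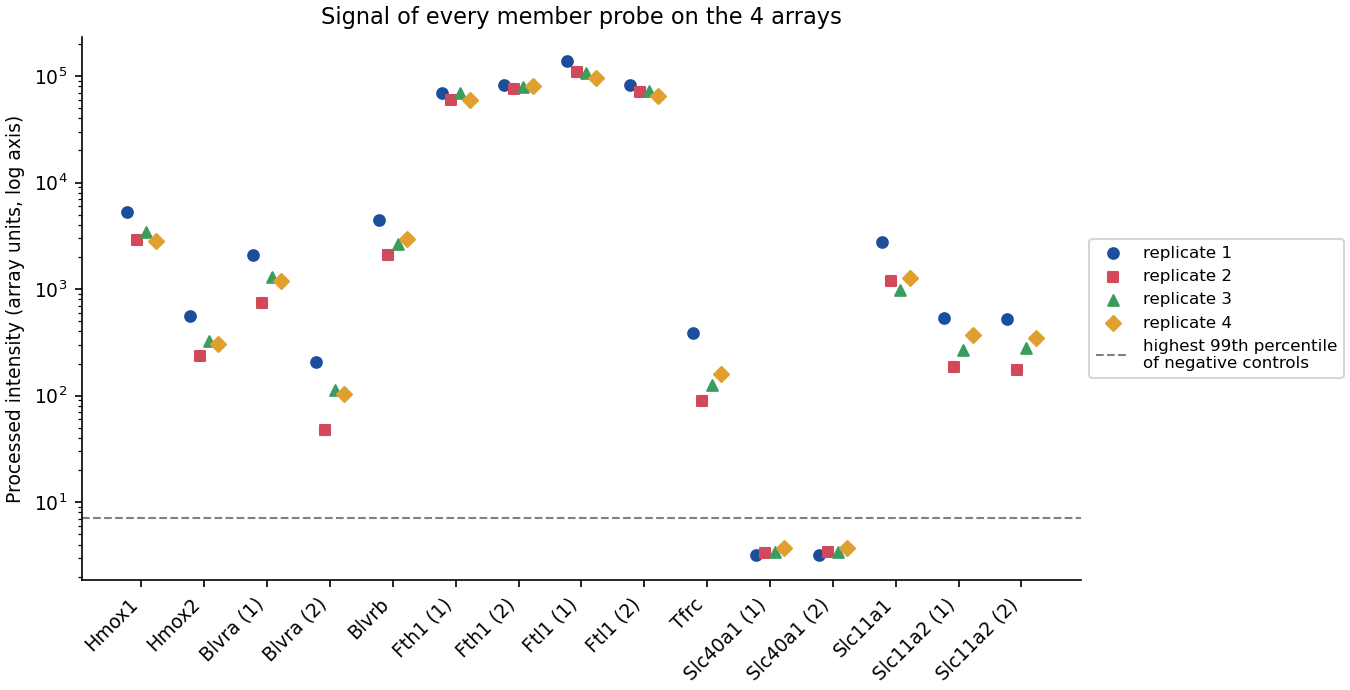
Intensity after background subtraction, detrending and the software's floor (log axis) of each of the 15 probes on the 4 arrays. Each array has 1 symbol, and genes with a pair of probes show them as (1) and (2). The ferritin probes lie between 59056 and 137037 units, and both Slc40a1 probes lie below the dashed line, the highest 99th percentile of the negative controls over the arrays (7.05 units).

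The heme oxygenases come first in the pathway. Hmox1, the form induced by heme and oxidative stress, had intensities of 5338, 2859, 3419 and 2809 units on replicates 1 to 4. On each array this was at least 399 times what 99% of the negative controls stayed under. Relative to the array, its levels were 1.90, 2.29, 2.16 and 1.76, a mean of 2.03 ± 0.24 (SD, n = 4). Replicates 2 and 3 were thus the higher ones on this scale although replicate 1 had the strongest unscaled signal. Hmox2, the form present without induction, had intensities of 562, 235, 328 and 303 units. Its levels were −1.35, −1.31, −1.22 and −1.45, a mean of −1.34 ± 0.10 (SD, n = 4). Its spread was lower than that of Hmox1, and 7.93% of the 5824 genes detected on all 4 arrays by a single probe had a lower SD, against 55.2% for Hmox1. Within an array, the log2 ratio of Hmox1 over Hmox2 was 3.25, 3.60, 3.38 and 3.21 on replicates 1 to 4. This ratio does not depend on the scaling between arrays. It spanned 0.39 on the log2 scale, and its SD of 0.18 lay between those of Hmox2 and Hmox1. Each of the oxygenases had 1 probe at 1 spot, so no test between arrays was possible for them.

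Biliverdin reductases follow. Blvrb, which reduces flavins and biliverdin, had intensities of 4470, 2105, 2629 and 2921 units. Its levels of 1.64, 1.85, 1.78 and 1.81 gave a mean of 1.77 ± 0.09 (SD, n = 4), the smallest SD among the 9 detected members. Hmox2 had the smallest instead when arrays were scaled to the median or over all probes, and without replicate 3 or replicate 4. Blvra, the enzyme that makes bilirubin from the biliverdin of adult heme breakdown, was read by 2 probes. The brighter one, A_43_P12959, had intensities of 2094, 735, 1309 and 1198 units and levels of 0.55, 0.33, 0.77 and 0.53 (0.54 ± 0.18, SD, n = 4). The dimmer one, A_44_P233618, had intensities of 207, 47.1, 112 and 103 units and levels of −2.79, −3.64, −2.77 and −3.01 (−3.05 ± 0.41). Both probes were lowest on replicate 2 and highest on replicate 3, though at the dimmer one replicate 1 was close behind (−2.79 against −2.77). They disagreed on replicate 2, whose deviation from the mean was −0.21 at the brighter probe and −0.58 at the dimmer one. On replicate 1 these deviations were 0.005 and 0.26. The reference annotation lists a pseudogene each for Blvra, Blvrb and Hmox2, and only that of Hmox2 has a named probe, which was not detected.

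Upstream sequence was at hand for 6 of the 10 genes in 8 windows of 250 bases before the annotated start (RefSeq, assembly GRCr8); those of Hmox1, Fth1, Ftl1 and Slc11a1 are not shown. The letters TGACNNNGC, the core to which NRF2 and BACH1 bind with small MAF proteins, were searched on both strands, because this pair of factors is known for its control of heme oxygenase and ferritin genes. They stood in 2 of the 8 windows, where 10.1% of 33469 windows of that length in the rat table held them; they can overlap the letters ACGTG. Both stretches are given 5′ to 3′ along the gene, with the match in capitals, which lies on the opposite strand. The Blvra stretch is chr3:134802755-134802783 on the plus strand and the Hmox2 stretch chr10:11337689-11337717 on the minus strand.
Blvra: ttaaatatttGCTGGGTCAccgaagtgga
Hmox2: gtcttggaagGCAGTGTCAgcttggccag
The matches begin 145 and 95 bases before the start. They are letters in a sequence, and binding was not measured.

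The ferritin chains gave strong signal. Fth1 encodes the heavy chain, which oxidises iron as it enters the shell, and Ftl1 the light chain, which helps to form the mineral core. Fth1 probe A_64_P075640 had 81706, 75360, 78780 and 80906 units on replicates 1 to 4, and probe A_44_P1144205 had 69967, 59347, 69201 and 59056 units. The first thus differed by 1.08-fold between its highest and lowest array, and the second by 1.18-fold. Detrending bears on these values. Before it, the first probe read 62919, 76583, 76158 and 82049 units, with replicate 1 the lowest. Detrending multiplied the signal of that probe on replicate 1 by 1.30. The second probe read 70589, 52391, 63677 and 51850 units before detrending. Ftl1 probe A_44_P1158929 had 137037, 108037, 105703 and 95932 units, and probe A_64_P004348 had 81795, 70679, 71625 and 64692 units. Their highest and lowest arrays differed by 1.43-fold and 1.26-fold. Before detrending, A_44_P1158929 read 114805, 91994, 95637 and 91846 units, and A_64_P004348 read 83365, 70085, 70982 and 64764 units. The unscaled, detrended ferritin signal thus differed by 1.43-fold at most, between replicates 1 and 4 at Ftl1 probe A_44_P1158929. The reference of the arrays differed by 2.45-fold at most, between replicates 1 and 2.

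Set against that reference, the order turned. The levels of Fth1 at A_64_P075640 were 5.84, 7.01, 6.68 and 6.60, a mean of 6.53 ± 0.50 (SD, n = 4). Those of Ftl1 at A_44_P1158929 were 6.58, 7.53, 7.11 and 6.85, a mean of 7.02 ± 0.40. All 4 ferritin probes were lowest on replicate 1 and highest on replicate 2, by 1.17 and 1.05 on the log2 scale for Fth1 and by 0.95 and 1.08 for Ftl1. The SD of Fth1 was above that of 94.2% of the 5824 detected genes and the SD of Ftl1 above that of 87.3%. Without replicate 1, the SD of Fth1 was 0.21 and that of Ftl1 0.34. Before detrending, the SD of Fth1 reached 0.68. After quantile normalization the SD was 0.30 for Fth1 and 0.08 for Ftl1, and neither was highest on replicate 2 any longer. That setting gives each rank the same value on every array, so it draws the brightest probes together by construction. After detrending, the 2 probes of each chain kept their ratio. The log2 ratio of the brighter over the dimmer probe had an SD of 0.12 for Fth1 and 0.08 for Ftl1. Before detrending, Fth1 probe A_64_P075640 read below A_44_P1144205 on replicate 1 (62919 against 70589 units) and above it on replicates 2 to 4. The ratio of Ftl1 over Fth1 on the same array was 0.75, 0.52, 0.42 and 0.25 on the log2 scale, with a range of 0.50.

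Other genes of like level moved with the ferritins. Of the detected genes that are no members, 43 lay within 1 of the level of Fth1. Their median deviation from their own means was −0.33, 0.23, 0.11 and 0.03 on replicates 1 to 4, against −0.70, 0.48, 0.15 and 0.07 for Fth1. On replicate 1, 97.7% of them lay below their mean, as Fth1 did. Of these 43 genes, 1 had a higher SD than Fth1. For Ftl1, the 20 genes within 1 of its level had median deviations of −0.39, 0.29, 0.12 and 0.03, against −0.44, 0.51, 0.09 and −0.17 for Ftl1 itself, and 3 of them had a higher SD. Once the median of these genes was taken off, an SD of 0.26 remained for Fth1 and 0.18 for Ftl1. Over all detected genes, the median deviation on replicate 1 was 0.12 for 2006 genes with levels from −4 to −2, and −0.45 for 22 genes at 6 or above. The part of overall signal in the ferritin pattern was not tested. The brightest member spot, of Ftl1, stood at 15.1% of the scanner's saturation value before background was taken off. The reference annotation also lists 21 relatives and pseudogenes under names derived from Ftl1 and 6 from Fth1, none with a named probe, so signal from such copies cannot be told apart from that of the 2 genes.

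**Figure D2:**
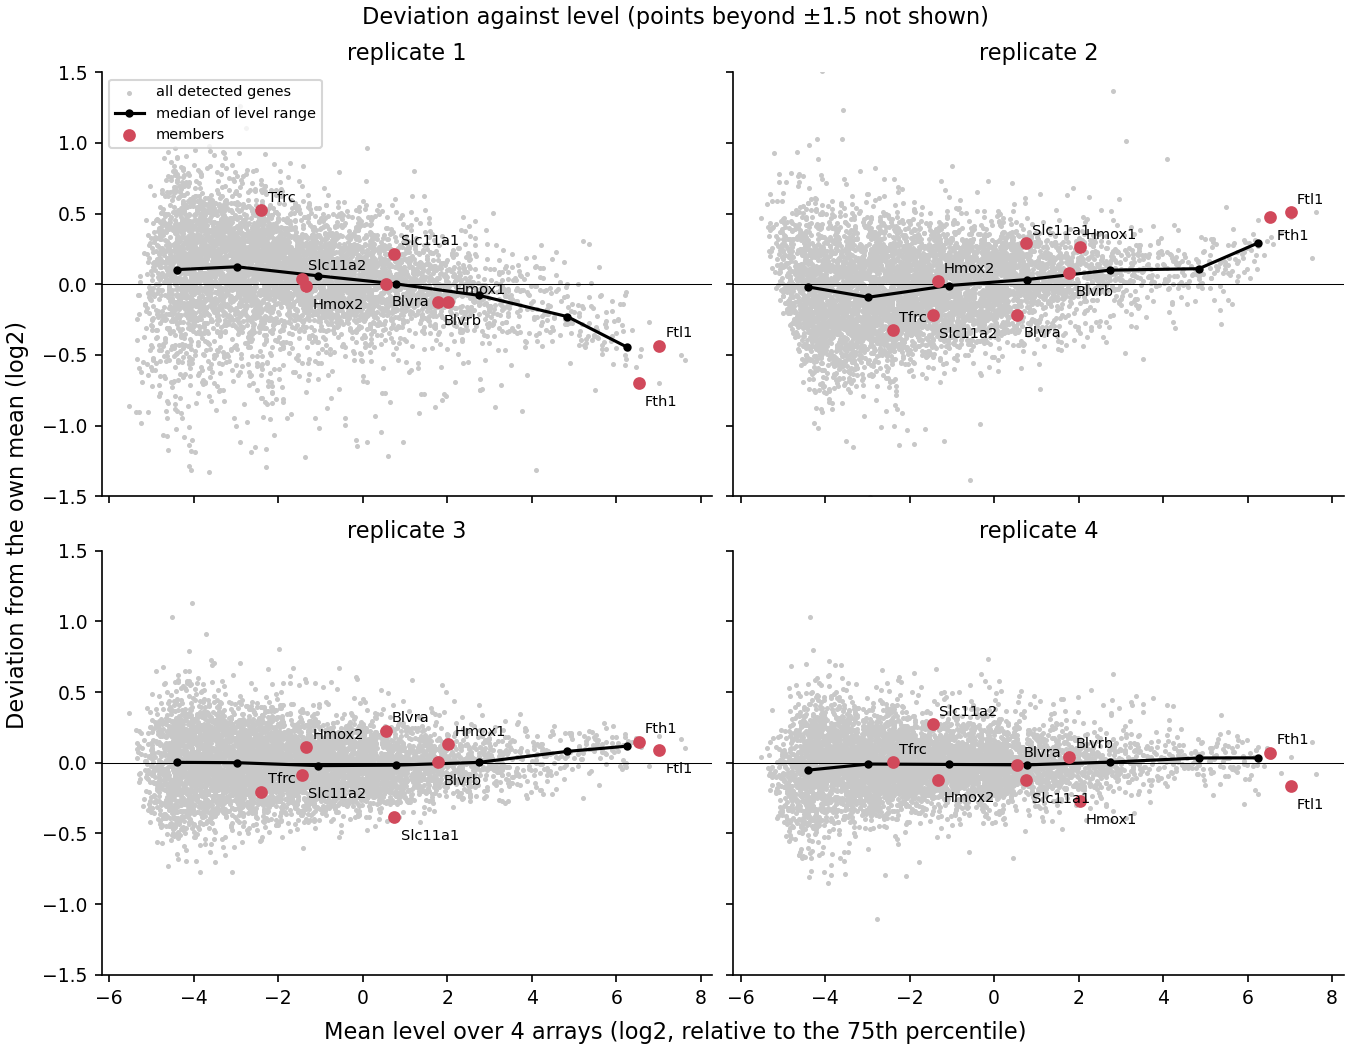
Deviation of each gene from its own mean on each array (log2) against its mean level, 1 panel for each replicate; grey points are the 5824 detected genes, the black line joins medians over ranges of level, and red points are the 9 detected members. Fth1 and Ftl1 lie at the bright end, where the median was −0.45 on replicate 1 and 0.29 on replicate 2. On these replicates Tfrc lies among dim genes on the opposite side.

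Iron import through transferrin was read by Tfrc, the transferrin receptor, at 1 probe printed at 2 spots, the only member that could be tested between arrays. The 250 bases before its start are shown because of that test, at chr11:81690319-81690568 on the minus strand (RefSeq, GRCr8). Capitals mark the letters ACGTG, the core recognised by hypoxia-inducible factors, which are known to act on this gene in other settings. They stood 31 bases before the start, and 16.6% of the 33469 windows held them on either strand.
Tfrc: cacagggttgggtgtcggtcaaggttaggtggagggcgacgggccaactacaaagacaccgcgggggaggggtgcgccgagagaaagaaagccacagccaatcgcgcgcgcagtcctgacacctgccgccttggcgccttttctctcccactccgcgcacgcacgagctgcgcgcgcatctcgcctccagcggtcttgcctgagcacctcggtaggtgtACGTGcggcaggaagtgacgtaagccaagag
GGGCGG, the box bound by Sp factors, was not among the letters of this window.

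Tfrc had mean intensities of 391, 88.8, 127 and 158 units on replicates 1 to 4, at least 13.4 times the 99th percentile of the negative controls. The 2 spots on replicate 1 read 398 and 383 units, and those on replicate 2 read 93.8 and 83.7 units. Relative to the array, its levels were −1.87, −2.72, −2.60 and −2.39, a mean of −2.40 ± 0.38 (SD, n = 4). Replicate 1 was thus the highest, and its spots did not overlap with those of the other arrays. The arrays differed by limma's moderated F test with spots as replicates (adjusted p = 0.000192 over 1594 probes), with 0.85 between the highest and lowest array on the log2 scale, or 1.80-fold. Of all probes tested, 85.2% passed at this threshold, 27.2% did so with a minimum of 1.5-fold, as Tfrc did, and 4.64% with a minimum of 2-fold, which Tfrc missed. A range above that of Tfrc was found for 10.2% of the probes. The spots share the RNA of 1 culture, so the test sets arrays against printing error and takes culture, extraction, labelling and hybridisation together. Without replicate 1 the range fell to 0.33 (limma adjusted p = 0.0243), and after normexp correction it was 0.29 with an adjusted p of 0.0528.

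Tfrc and the ferritin heavy chain ran in opposite order. Within an array, where scaling by a constant cancels, the log2 ratio of Tfrc over Fth1 was −7.71, −9.73, −9.28 and −9.0 on replicates 1 to 4. It spanned 2.02, the widest of the 8 ratios between members that were formed. Tfrc was highest and Fth1 lowest on replicate 1, and the reverse held on replicate 2, except that Fth1 was highest on replicate 3 after quantile normalization and Tfrc lowest on replicate 3 after normexp correction. Among genes within 1 of the level of Tfrc, the median deviation was 0.11 on replicate 1 and −0.07 on replicate 2, against 0.52 and −0.33 for Tfrc, so dim genes leaned the same way by less. Genes within 1 of the level of Fth1 leaned the opposite way, with −0.33 on replicate 1 and 0.23 on replicate 2, against −0.70 and 0.48 for Fth1. The share of these leans in the ratio was not tested.

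**Figure D3:**
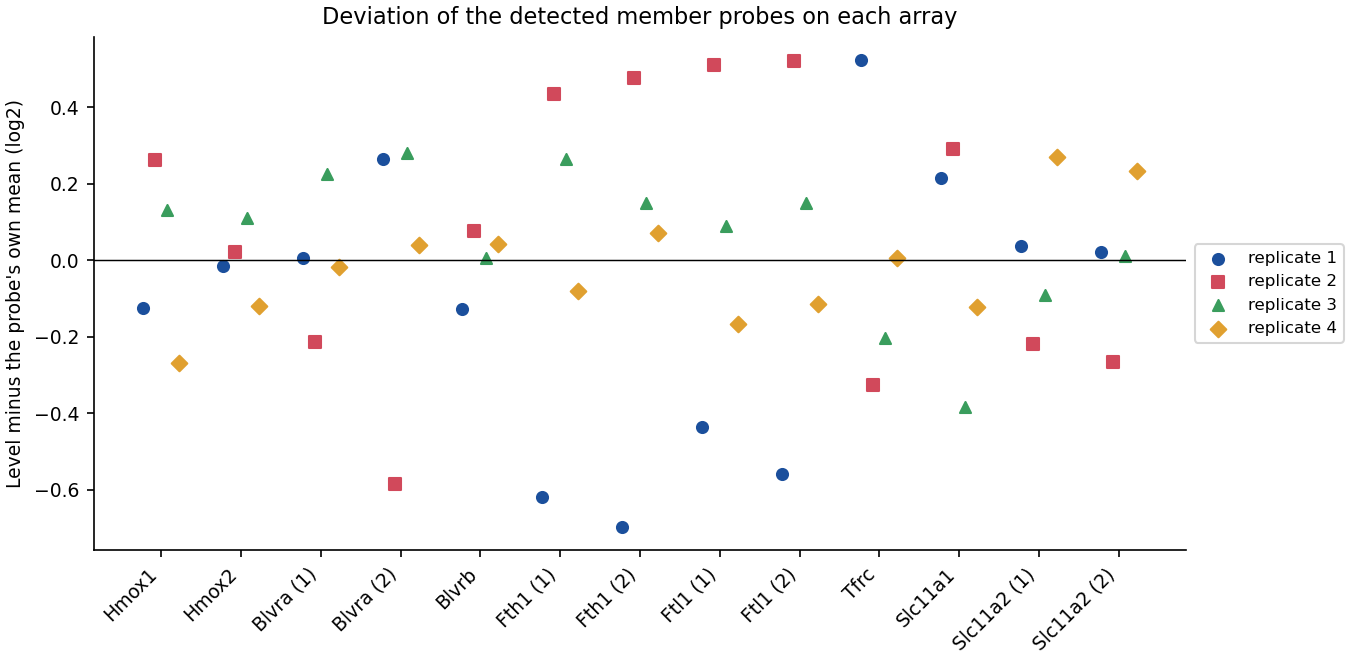
Level minus the probe's own mean (log2) for the 13 detected member probes, 1 symbol for each of the 4 arrays; (1) and (2) are the probes of a gene in order of their names. All 4 ferritin probes have replicate 2 on top and replicate 1 at the bottom, and Tfrc has replicate 1 on top, at 0.52.

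The transporters of the NRAMP family carry iron and other metals across the membranes of endosomes and phagosomes. Slc11a2, which encodes DMT1, was read by 2 probes that agreed. A_44_P1083038 had intensities of 541, 185, 265 and 369 units and levels of −1.40, −1.66, −1.53 and −1.17 (−1.44 ± 0.21, SD, n = 4). A_64_P102433 had 520, 174, 277 and 350 units and levels of −1.46, −1.75, −1.47 and −1.25 (−1.48 ± 0.20). Both were highest on replicate 4 and lowest on replicate 2, and their log2 ratio had an SD of 0.07. Slc11a1, which encodes NRAMP1 of the macrophage phagosome, had intensities of 2788, 1201, 986 and 1281 units. Its levels were 0.96, 1.04, 0.36 and 0.62, a mean of 0.75 ± 0.31 (SD, n = 4). Replicates 1 and 2 lay above replicates 3 and 4. Before detrending, the levels were 0.56, 0.65, 0.13 and 0.50, and after normexp correction 0.51, 0.59, 0.13 and 0.42, so that replicate 4 lay nearer to replicates 1 and 2 than to replicate 3. Of the genes within 1 of its level, 13.2% had a higher SD. The ratio of Slc11a1 over Slc11a2 spanned 0.90 on the log2 scale, and that of Tfrc over Slc11a2 spanned 0.75, with −0.47 on replicate 1 and between −1.22 and −1.06 on the others.

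Iron export was the exception. Slc40a1, which encodes ferroportin, the only known iron exporter of mammals, gave 3.16, 3.34, 3.41 and 3.67 units at probe A_44_P819401 and 3.17, 3.39, 3.41 and 3.69 units at probe A_64_P101204. These are values at the floor set by the scanner software, and the error it gives for them is 100% of the value. Before that floor, the background-subtracted signal ran from −7.57 to 1.67 units over the 2 probes and 4 arrays. On the same scale, 99% of the negative controls stayed under 5.72 units on the array with the lowest such limit. The Slc40a1 probes thus lay within the range of the negative controls, and no level or SD is given for the gene. The message may still be present below this limit or in a form the probes miss. Its upstream window is shown as that of the undetected member, at chr9:55543461-55543710 on the minus strand, with GGGCGG or its complement in capitals. These letters stood 3 times in it, and 30.5% of all windows held them at least once. Among detected members, the window of Blvrb held them 5 times and those of Slc11a2 4 and 0 times. The windows of Hmox2 held them 1 and 0 times, and those of Blvra and Tfrc did not hold them.
Slc40a1: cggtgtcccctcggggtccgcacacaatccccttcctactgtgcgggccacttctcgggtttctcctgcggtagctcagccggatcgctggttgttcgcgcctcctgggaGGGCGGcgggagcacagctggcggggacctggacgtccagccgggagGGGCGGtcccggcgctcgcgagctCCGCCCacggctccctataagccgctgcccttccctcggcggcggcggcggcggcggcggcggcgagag
Neither TGACNNNGC nor ACGTG was among its letters.

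The 9 detected members differed in how far they varied. Their median SD was 0.24, against 0.23 over all 5824 detected genes. Of the 9, 3 (Fth1, Ftl1 and Tfrc) had an SD above the 75th percentile of all detected genes (0.32), and 2 (Hmox2 and Blvrb) an SD below the 25th (0.16). Replicate 2 held the highest level for 5 members and the lowest for 3, and over all detected genes it was highest for 28% and lowest for 32.2%. Replicate 1 was highest for 1 member, Tfrc, where 37.8% of all detected genes were highest on it. Over the settings in the plot of spread under other processing, the SD of Hmox1 ran from 0.21 to 0.28 and that of Slc11a1 from 0.20 to 0.33. The ferritins, Tfrc and Blvrb covered wider ranges relative to their values, with 0.02 after normexp correction and 0.17 when scaled over all probes for Blvrb.

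**Figure D4:**
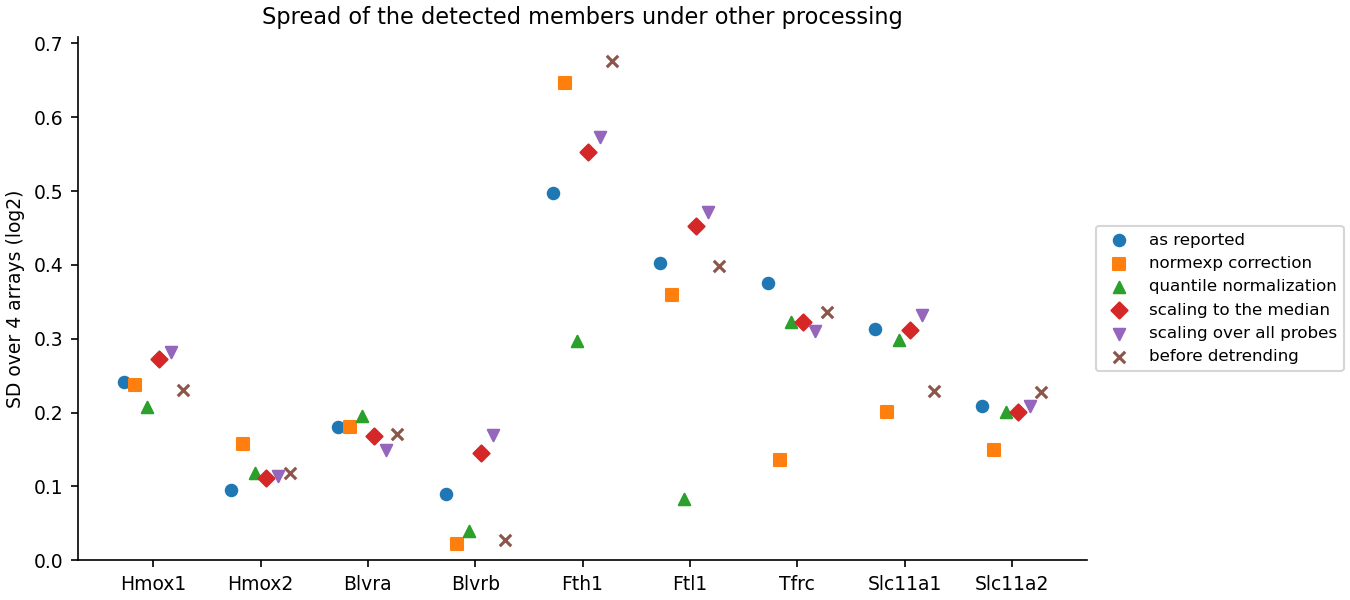
SD over the 4 arrays (log2) of each detected member, as reported and under 5 other settings, 1 symbol for each setting. Ftl1 drops to 0.08 after quantile normalization and Tfrc to 0.14 after normexp correction, and Fth1 reaches 0.68 before detrending. Quantile normalization draws the brightest probes to like values by construction.

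Genes whose pattern over the 4 arrays came near were ranked by the root mean square difference of deviations from the own mean. Among the nearest were, for Hmox1, Adra2b (0.015) and Rbmx (0.022), for Fth1 Noc2l (0.042), and for Ftl1 Tspan18 (0.025) and Vegfb (0.035), among 5823 genes compared. With 4 arrays, 112 of the 5823 genes came within 0.1 of Hmox1, 30 of Fth1 and 39 of Ftl1. The genes named are thus not alone in being near, and the ranking describes these arrays only.

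The wider pathway was detected in part. Across 7 lists of heme and iron handling with 54 measured genes, 29 were detected on every array, another 5 on 1 to 3 arrays, and 20 nowhere. That is 53.7% on every array, where 35.2% of all named genes were, and the lists were drawn up from genes known to handle iron or heme. The detected ones had a median SD of 0.21, against 0.23 over all detected genes. For heme synthesis, every array detected 8 of 11 genes, and the other 3 were undetected. Alas1, the first and rate-limiting enzyme outside red cells, was at 1.63 ± 0.15, with 1.74, 1.72, 1.41 and 1.65 on replicates 1 to 4. Alad, which joins the first ring, was at 1.12 ± 0.04 and Urod at 1.34 ± 0.03. Fech, which inserts the iron, was at −2.21 ± 0.31, and Ppox, the step before it, at −3.14 ± 0.09. Alas2, the red cell form, was undetected, and so were Uros and Cpox, both needed for synthesis. Alad and Urod thus had a lower SD than any detected member.

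Partners and regulators of heme oxygenase were mostly present. Every array detected 5 of these 7 genes (71.4%, where 35.2% of all named genes were detected), and Mafk was detected on 1 array. Por, the reductase that feeds electrons to heme oxygenase, was at −0.99 ± 0.21. Nfe2l2, which encodes the activator NRF2, was at −1.91 ± 0.20, its inhibitor Keap1 at −4.19 ± 0.18, and the small MAF genes Mafg and Maff at −1.65 ± 0.21 and −3.29 ± 0.18. Bach1, the repressor that heme removes from Hmox1, was not detected on any array. Iron sensing was read by 4 genes, of which 3 were detected. Aco1, whose protein is iron regulatory protein 1 when it lacks its iron-sulfur cluster, was at 0.20 ± 0.20, and Ncoa4, which delivers ferritin to lysosomes, was at −0.81 ± 0.25. Pcbp2, an iron chaperone, was at 0.05 ± 0.37 and highest on replicate 1, at 0.58, while Ireb2 was not detected.

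Every array detected 2 of 8 measured genes of heme uptake and export (25%), while 5 were undetected and Hpx was found on 1 array. Over all named genes, 35.2% were detected on every array. The heme transporter gene Slc48a1 of the lysosome was at −1.02 ± 0.36 and Lrp1, a receptor for hemopexin with heme, at −3.59 ± 0.41. Cd163, the receptor for haptoglobin with hemoglobin, was not detected, nor was Slc46a1. Every array detected 5 of 12 genes of iron uptake, reduction and movement (41.7%), while 6 were undetected and Steap3 was found on 1 array. Lcn2, which binds bacterial iron carriers, was at 5.00 ± 0.23, with levels of 4.80, 5.32, 5.03 and 4.84. The mitochondrial carrier gene Slc25a28 was at −0.04 ± 0.11 and its relative Slc25a37 was undetected. The metal importer gene Slc39a8 was at −4.39 ± 0.62 and highest on replicate 1, at −3.49, and the ferric reductase genes Steap4 and Cybrd1 were undetected. For iron export and its systemic control, Hfe, Tfr2 and Tmprss6 made 3 of 8 genes (37.5%) with signal on every array. Cp and Hjv were found on 1 array each, and 3 were undetected. The hepcidin gene Hamp and the ferroxidase gene Heph, which works with ferroportin, were among the undetected. Of 4 genes of iron-sulfur clusters and mitochondrial iron, Iscu (−0.43 ± 0.08), Nfs1 (−3.45 ± 0.34) and Glrx5 (0.77 ± 0.20) were detected on all arrays and Ftmt, the mitochondrial ferritin, on none. Each ± here is an SD over 4 arrays.

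**Figure D5:**
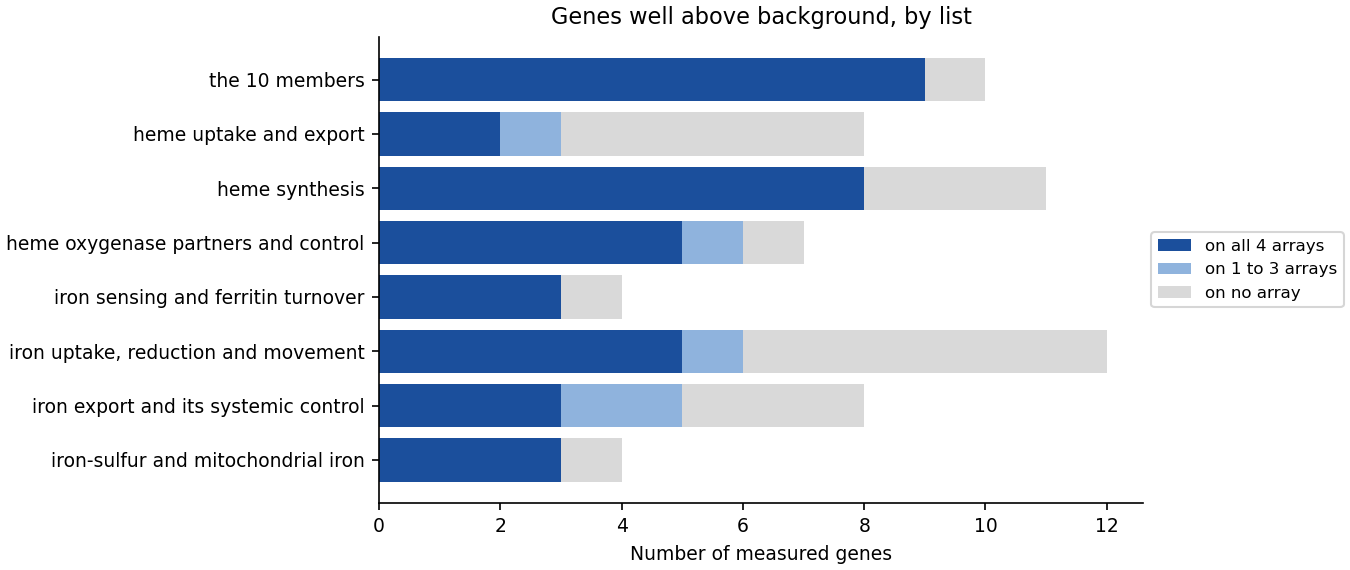
Counts of measured genes by detection (every array, 1 to 3 arrays, no array) for the 10 members and the 7 lists of heme and iron genes. Heme synthesis has 8 of 11 genes detected on every array, and heme uptake and export 2 of 8.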

How the data were processed

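RNA of 4 exposed cultures was read on 1-colour Agilent arrays (design 074036), from 100 ng RNA with a RIN above 7.5, per the labels' protocols. The deposited files hold spot intensity made with Agilent Feature Extraction 11.0.1.1, per the file headers and the submitters' processing notes: background-subtracted, detrended within the array and raised to a floor by the authors' software, and not normalized between arrays. Of 58717 gene spots, none was saturated. Outlier spots were left out and spots of a probe averaged on the log2 scale. The 75th percentile that scales an array was taken over the 10438 of 45598 probes (22.9%) detected on all arrays, since this share was under 50%. A probe was detected when more than 50% of its spots were well above background, and a gene when any probe was; its level is that of its brightest probe. Accessions named 21109 probes through the GRCr8 gene table, which gave no coordinates for probes.

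The 1594 detected probes with 2 or more spots were tested between arrays by the moderated F of limma 3.58.1 in R 4.3.3, adjusted after Benjamini and Hochberg. On simulated data for these 1594 probes, shifts of 1 and of 2 (log2) were called at 100 of 100 probes each. Of 1394 unshifted probes, 10 were called. The simulated spots had the same size of random error at every probe and no difference between arrays apart from the shifts. That run checked the calculation and gives no error rate for the real arrays. The other steps used pandas 2.3.3, matplotlib 3.10.9 and numpy 2.4.6 under Python 3.11.15. Named genes were all members with every probe, genes of the lists and markers, and for Hmox1, Fth1 and Ftl1 the 2 genes nearest in pattern. Members and lists were chosen with earlier results of these data known. Alternatives were normexp with an offset of 50 on the median signal, quantile normalization, scaling to the median or over all probes, outlier spots kept, the mean over a gene's probes, other detection rules, other fold minima, no filter on dim probes, a correction for the part of the array, each replicate left out and, chosen after seeing the data, signal before detrending. List genes Flvcr1, Fbxl5 and Pcbp1 had no named probe here. Some genes that these rules name are not reported here.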

Additional observations from a re-analysis of the deposited data

Results flagged for a closer look

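Among 47 profiles over 4 arrays (member probes detected on all arrays and list genes detected on at least 1), 3 had 1 array far from the others by Dixon's ratio, the gap to the nearest array divided by the range, beyond its 95% limit for 4 samples. Chance alone gives about 1 in 20. None was a member. Hpx, which encodes the heme carrier hemopexin, was at -1.57 on replicate 3 and at -8.28, -7.27 and -7.70 on replicates 1, 2 and 4 (ratio 0.850), and was detected on that array alone. Por had a level of -0.68 on replicate 2, and the other arrays gave -1.06, -1.09 and -1.13 (ratio 0.847). Mafk read -7.54 on replicate 2, with -6.13, -6.18 and -6.15 on the other arrays (ratio 0.968), near background throughout.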

How the results depend on the processing

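The count of 9 detected members was the same when signal above the 99th percentile of negative controls or all spots of a probe were asked for, and without each replicate. The 29 list genes became 30 above the negative controls and stayed 29 without each replicate. The median SD of the detected members (0.24) was 0.18 after normexp and 0.28 when scaled over all probes or averaged over a gene's probes, and 0.19 to 0.25 without each replicate. The range of Tfrc (0.85) was 0.29 after normexp (limma adjusted p = 0.0528), the only setting tried where it missed the threshold, 0.33 to 0.86 without each replicate, and 0.66 to 0.85 otherwise; it passed a 1.5-fold but no 2-fold minimum. With the 2-fold minimum, 74 probes were called, 38 after normexp, 23 without replicate 1, 45 without replicate 2 and 573 without the filter on dim probes. The normexp setting corrected the median signal for local background and then added an offset of 50. An added constant shrinks log2 differences of dim probes, and its part in these changes was not tested. For the other changes the cause was not tested either. Depth here is signal over background, and the Slc40a1 probes were below what the arrays resolve. No paired analysis was possible because the data form 1 group.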
